A study of Mus musculus with 6 samples.

Results

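The genes described here encode receptors, a ligand and enzymes of the endothelin, angiotensin and adrenergic systems. Their RNA was measured after a pulldown of ribosomes from Pdgfrb(BAC)-CreERT2-recombined lung cells. The members were chosen by symbol: Edn1, Ece1, Ednra and Ednrb for endothelin, Ace, Agtr1a and Agtr2 for angiotensin, and Adra1a, Adra1b and Adra2a for adrenergic signalling. Through GENCODE M21, all 10 were found by their Ensembl identifiers among the 21603 genes of each sample. Lungs were taken at postnatal day 8 from C57BL/6 mice, 3 controls and 3 Yap1,Wwtr1 iPCKO mutants. Controls are labelled Yap1+/-;Wwtr1+/- and mutants Yap1-/-;Wwtr1-/-, and according to the methods each allele marked as lost is a loxP-flanked copy that Cre removes. Every mouse of both groups carried the Pdgfrb(BAC)-CreERT2 transgene and a single loxP-flanked RiboTag copy of Rpl22 and received tamoxifen in the first days of life. The controls are therefore not wild type, and the comparison is between recombined cells with a single intact copy of Yap1 and Wwtr1 and recombined cells with none. After recombination the RiboTag allele makes RPL22, a ribosomal protein, with an HA tag, so that an anti-HA antibody pulls down ribosomes with their RNA. The transgene acts wherever PDGFRβ is made, so cells other than pericytes that express it can contribute. No whole-lung input library was among the samples, so enrichment by the pulldown cannot be computed for any member. In reporter mice given tamoxifen in the first days of life, the paper saw no reporter signal in PDGFRα+ fibroblasts. It also saw none in αSMA+ bronchial smooth muscle cells or myofibroblasts.

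Endothelin, angiotensin II and noradrenaline are among the main signals that make vascular smooth muscle and pericytes contract. Endothelin is cut from a larger precursor by the endothelin-converting enzyme and acts on the A and B receptors (Ednra, Ednrb), while angiotensin-converting enzyme (Ace), abundant on lung capillary endothelium, turns angiotensin I into angiotensin II, which acts on the type 1 and type 2 receptors (Agtr1a, Agtr2). Noradrenaline and adrenaline act on alpha-1 receptors, which couple to Gq and calcium release, on alpha-2 receptors, which couple to Gi and lower cyclic AMP, and on beta receptors, which couple to Gs and raise it.

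Values are RPKM as the authors deposited them, that is reads divided by library size and by kilobases of exon, so levels can be set side by side between genes. Denominators implied by the lowest values ranged from 17.41 to 34.67 M reads in controls and from 14.23 to 39.59 M in iPCKO lungs. Yap1 RNA was 12.4 ± 0.859 RPKM in controls and 5.61 ± 0.314 in iPCKO lungs (SD, n = 3 each, as for all values below) and fell by 1.12 on the log2 scale (limma, adjusted p = 0.00017). Wwtr1 RNA stood at 60.4 ± 9.48 and 62.0 ± 1.63 RPKM (log2 difference 0.05, adjusted p = 0.82), and a value per gene does not show which exons the reads came from, so this cannot check the Wwtr1 label. The pericyte marker Pdgfrb was measured at 1533.3 ± 150.9 and 1336.7 ± 130.5 RPKM, and of the 10 pericyte markers, all with RNA in both groups, 3 were called higher and 2 lower by the rule given below. Summed levels of 8 smooth muscle markers were 1313.2 to 1491.6 RPKM in controls and 1435.9 to 1576.5 in iPCKO lungs. For 9 fibroblast and myofibroblast markers they were 715.4 to 913.9 and 737.5 to 1100.2. Both sums overlapped between the groups, but the mean log2 level of the smooth muscle markers was higher in every iPCKO lung. A sum does not show which cells the RNA came from. RNA of other cells was also present, with summed levels of 12 endothelial markers at 251.5 to 273.9 RPKM in controls and 257.0 to 283.1 in iPCKO lungs, and of 9 epithelial markers at 488.5 to 539.3 and 610.6 to 674.8. The epithelial sums were higher in every iPCKO lung than in any control. So were the marker sums for leukocytes (56.7 to 79.7 against 143.6 to 248.2 RPKM), neutrophils (86.7 to 129.2 against 446.8 to 4932.9) and platelets (8.16 to 9.95 against 23.4 to 65.7). The Y-linked transcripts Ddx3y, Kdm5d, Eif2s3y and Uty, summed, reached 35.0 RPKM in control 1 and 40.8 in control 3 but at most 0.075 in the other 4 lungs. Sex and genotype are thus partly confounded, with control 2 as the control that can be set beside the iPCKO lungs on this count. In lysates of whole lung, fewer cells of a type and less RNA per cell cannot be told apart.

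The mature endothelins are short peptides held by 2 disulphide bridges between 4 cysteines. The stretches of exon 2 that encode the mature peptides of Edn1 (GRCm38 chr13:42303649-42303711, plus strand) and Edn3 (chr2:174761749-174761811, plus strand) are shown. These are the ligand genes with RNA in the pulldown, and they differed in level and in response. Both stretches were read from GENCODE M21 transcripts, and the 4 cysteine codons are in capitals.
Edn1: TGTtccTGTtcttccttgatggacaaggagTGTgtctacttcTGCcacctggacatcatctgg
Edn3: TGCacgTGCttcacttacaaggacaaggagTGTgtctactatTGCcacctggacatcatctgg
Of the 63 bases, 50 are the same in both genes, and 15 of the 21 codons stand for the same residue.

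The stretch of 250 bases before the transcription start was available from RefSeq (GRCm38.p6) for 8 of the 10 members, in 13 windows since several members have more than a single start. YAP1 and TAZ, the product of Wwtr1, do not bind DNA themselves and are known to act through TEAD factors. The core TEAD motif GGAATG, searched on both strands (CATTCC on the other), was found in 1 of the 13 member windows, that of Edn1. Of all 32851 windows of this length, 12.6% held the motif. The AP-1 motif TGANTCA reads alike on both strands apart from its middle base. It was found in 1 of the 13 member windows, at a start of Adra1b, and in 6.75% of all windows. Shown are Edn1, with its motif in capitals (chr13:42301226-42301475, plus strand), Ace, the member that passed the thresholds (its first start, chr11:105967698-105967947, plus strand), and Adra2b, the adrenergic receptor gene with the largest change (chr2:127362929-127363178, plus strand).
Edn1: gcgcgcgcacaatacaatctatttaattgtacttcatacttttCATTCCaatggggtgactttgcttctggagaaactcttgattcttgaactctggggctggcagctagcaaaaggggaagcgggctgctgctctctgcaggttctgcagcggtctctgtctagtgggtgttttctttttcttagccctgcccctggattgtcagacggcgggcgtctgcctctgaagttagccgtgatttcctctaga
Ace: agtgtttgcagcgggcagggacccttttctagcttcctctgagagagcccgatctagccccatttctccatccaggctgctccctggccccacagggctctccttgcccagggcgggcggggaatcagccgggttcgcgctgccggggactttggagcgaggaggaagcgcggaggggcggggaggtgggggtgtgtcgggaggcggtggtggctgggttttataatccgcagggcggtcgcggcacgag
Adra2b: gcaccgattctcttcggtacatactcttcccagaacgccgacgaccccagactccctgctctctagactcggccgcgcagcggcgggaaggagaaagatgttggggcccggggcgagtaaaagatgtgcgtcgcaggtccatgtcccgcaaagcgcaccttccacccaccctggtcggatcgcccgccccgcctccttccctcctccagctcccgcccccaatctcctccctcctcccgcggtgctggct
Neither motif was found in the windows of Ace and Adra2b, which are rich in G and C (67.2% and 66.0% of bases, with 19 and 23 CpG dinucleotides).

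Among the members, RNA was most abundant for the endothelin A receptor and the angiotensin type 1 receptor. In controls the mean levels ran from Ednra (71.3 RPKM, the 97.5th percentile of all genes) through Agtr1a (38.9), Ace (18.1), Ece1 (13.8), Ednrb (5.12), Adra1b (4.17), Edn1 (1.59) and Agtr2 (1.24) to Adra1a (0.326) and Adra2a (0.123, the 32.5th percentile). Neighbours in this order did not overlap among controls except Ednrb with Adra1b and Edn1 with Agtr2. In iPCKO lungs the ranges of Adra1b and Edn1 met, and Adra1a and Adra2a changed places.

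**Figure D1:**
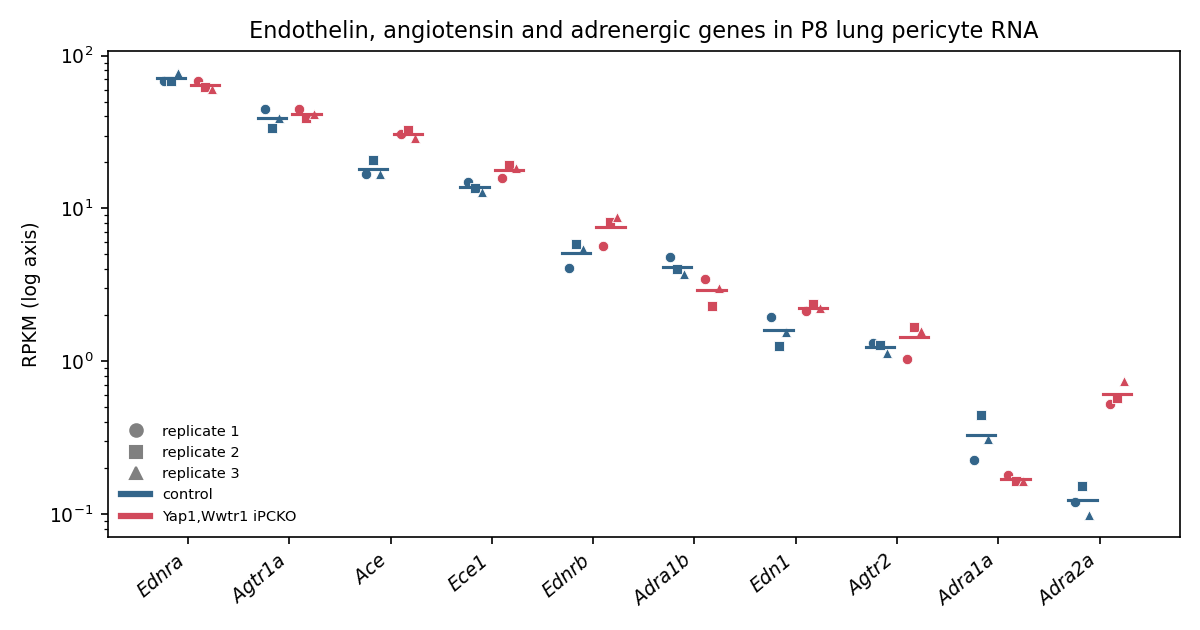
RPKM of the 10 members in the 6 lungs on a log axis, in the order of their control means, blue for control and red for iPCKO, with a point for each lung (shape gives the replicate number) and a bar for the group mean. Control and iPCKO points are apart for Ace, Ece1, Adra1b, Edn1, Adra1a and Adra2a and overlap for Ednra, Agtr1a, Ednrb and Agtr2.

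Genes were tested with limma on log2(RPKM + 0.1), a scale that understates the change of low genes, where they reached 1 RPKM in at least 3 samples, and were called where the adjusted p-value was under 0.01 and the log2 fold change past 0.5 in size. Of the 10 members 8 were tested, 1 was called (Ace, higher) and 0 were called lower, while 5 had an unadjusted p-value below 0.05. Over all 12034 genes tested 6.79% were called, 4.11% higher and 2.68% lower, and 29.7% had an unadjusted p-value below 0.05. The groups did not overlap for 4 of the 8 tested members (Ace, Adra1b, Ece1 and Edn1), against 35.5% of all genes tested. The median log2 fold change was 0.27 over the 8 members, with 6 above 0 and 2 below. Adra1a and Adra2a were too low to enter the fit and were compared by an exact permutation test, for which p = 0.1 is the lowest value that 3 lungs against 3 allow.

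**Figure D2:**
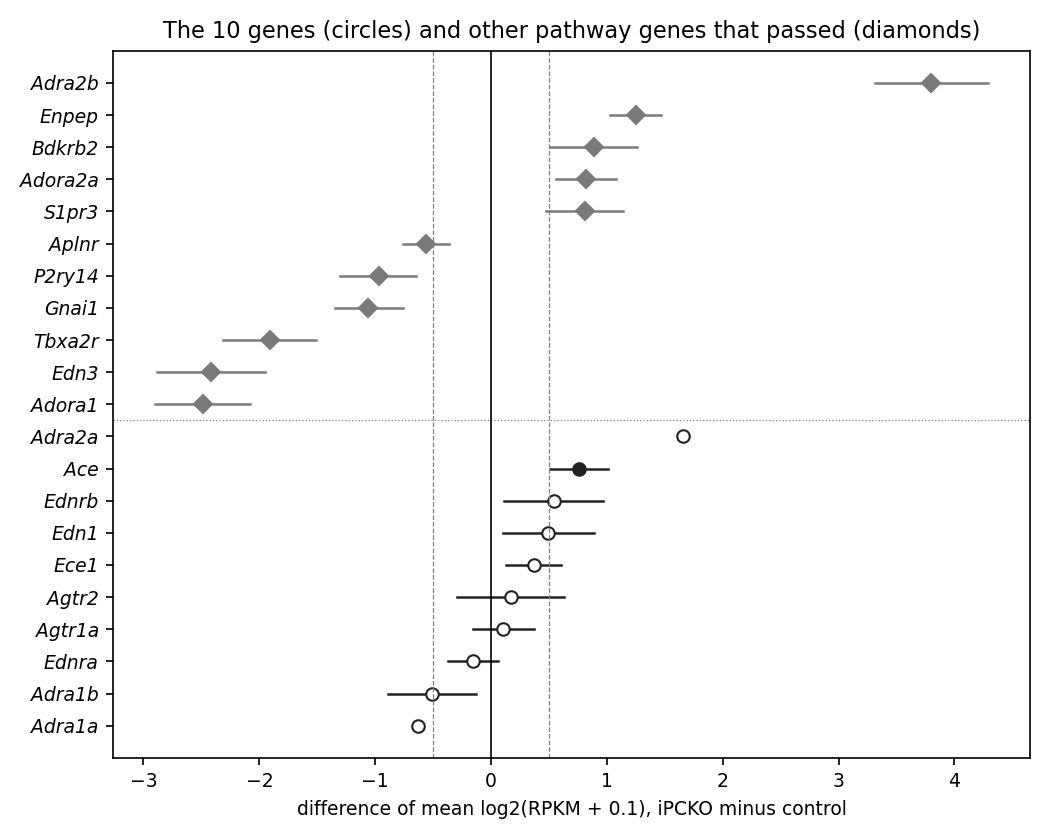
Log2 fold change, iPCKO minus control, on the log2(RPKM + 0.1) scale, of the 10 members (circles, filled where called, open where not called or, for Adra1a and Adra2a, not tested) and of the 11 other listed genes that were called (diamonds), with 95% confidence intervals where tested. Dashed lines mark 0.5 in either direction, and Ace at 0.76 is the filled circle, with Adra2b at 3.8 and Adora1 at -2.49 at the ends of the diamonds.

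The ligand gene Edn1 (ENSMUSG00000021367, chr13:42301476-42307990, plus strand), which encodes endothelin-1, was low in the pulldown. It was measured at 1.95, 1.25 and 1.56 RPKM in controls 1 to 3 and at 2.14, 2.35 and 2.24 in iPCKO lungs 1 to 3. All iPCKO lungs lay above all controls, by little for control 1. The ratio of the means was 1.41, the log2 difference 0.49 (SE 0.17, 95% interval 0.1 to 0.89) and the adjusted p 0.092, so the gene was not called. Edn1 is transcribed mainly by endothelial cells in most tissues. The endothelial marker sums overlapped between the groups, while those of epithelial, leukocyte, neutrophil and platelet markers did not. The part of any of these cells in the Edn1 difference was not tested.

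The other endothelin ligand, Edn3, was the main one at the RNA level and fell. Edn3, known above all for its part in neural crest and melanocyte development through the B receptor, stood at 20.9, 16.0 and 20.1 RPKM in controls and at 4.72, 2.55 and 3.41 in iPCKO lungs. The groups were far apart, and the level was 5.34-fold lower in the mutants (log2 difference -2.42, SE 0.2, adjusted p = 0.00019). Against control 2 alone, the control without Y-linked RNA, the difference was -2.18 with an adjusted p of 0.034. Edn2 was listed at 0 in all 6 lungs. The summed ligand RNA was 20.6 ± 2.95 RPKM in controls and 5.8 ± 0.987 in iPCKO lungs, of which Edn3 made up 92.3% ± 0.746 and 60.4% ± 8.37.

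Ece1 (ENSMUSG00000057530, chr4:137862237-137965229, plus strand), the endothelin-converting enzyme that releases the mature peptide, was measured at 14.9, 13.7 and 12.8 RPKM in controls and at 15.9, 19.2 and 18.5 in iPCKO lungs. Every iPCKO lung was above every control, with iPCKO 1 nearest to them. The log2 difference was 0.37 (SE 0.1, 95% interval 0.13 to 0.6, adjusted p = 0.045), below the fold threshold. Furin, a proprotein convertase that makes the first cut in the endothelin precursor, was the most abundant other gene of the system over all 6 lungs, though below Edn3 in controls (17.4 ± 4.58 against 24.7 ± 0.181 RPKM, adjusted p = 0.058). Of the 10 other endothelin genes, 5 were tested, 1 fell (Edn3) and 0 rose, where 6.79% of all genes tested were called. Ece2 and Mme (neprilysin, which degrades endothelin) stood at 0.628 to 0.665 against 0.89 to 1.17 RPKM, untested, and at 2.96 to 3.84 against 4.14 to 4.41 RPKM with an adjusted p of 0.18.

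Ednra (ENSMUSG00000031616, chr8:77663031-77724464, minus strand), the receptor through which endothelin-1 contracts mural cells, kept its place as the highest member. Its RNA was measured at 68.7, 67.9 and 77.2 RPKM in controls and at 68.0, 62.6 and 60.8 in iPCKO lungs. The groups overlapped through iPCKO 1. The log2 difference was -0.16 (SE 0.09, 95% interval -0.37 to 0.06, adjusted p = 0.3), and the interval does not reach the fold threshold of 0.5 in either direction.

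Ednrb (ENSMUSG00000022122, chr14:103814625-103844402, minus strand), the B receptor, which on endothelium releases nitric oxide and clears endothelin, stood at 4.1, 5.82 and 5.44 RPKM in controls and at 5.65, 8.19 and 8.79 in iPCKO lungs. iPCKO 1 lay within the control range and the other two lay above it. The log2 difference was 0.54 (SE 0.19, 95% interval 0.11 to 0.97, adjusted p = 0.091), so the gene was not called. RNA of the A receptor exceeded that of the B receptor by 16.8, 11.6 and 14.2 times in controls and by 12.0, 7.64 and 6.91 times in iPCKO lungs. The A receptor made up 93.3% ± 1.14 and 89.4% ± 2.61 of the summed receptor RNA.

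**Figure D3:**
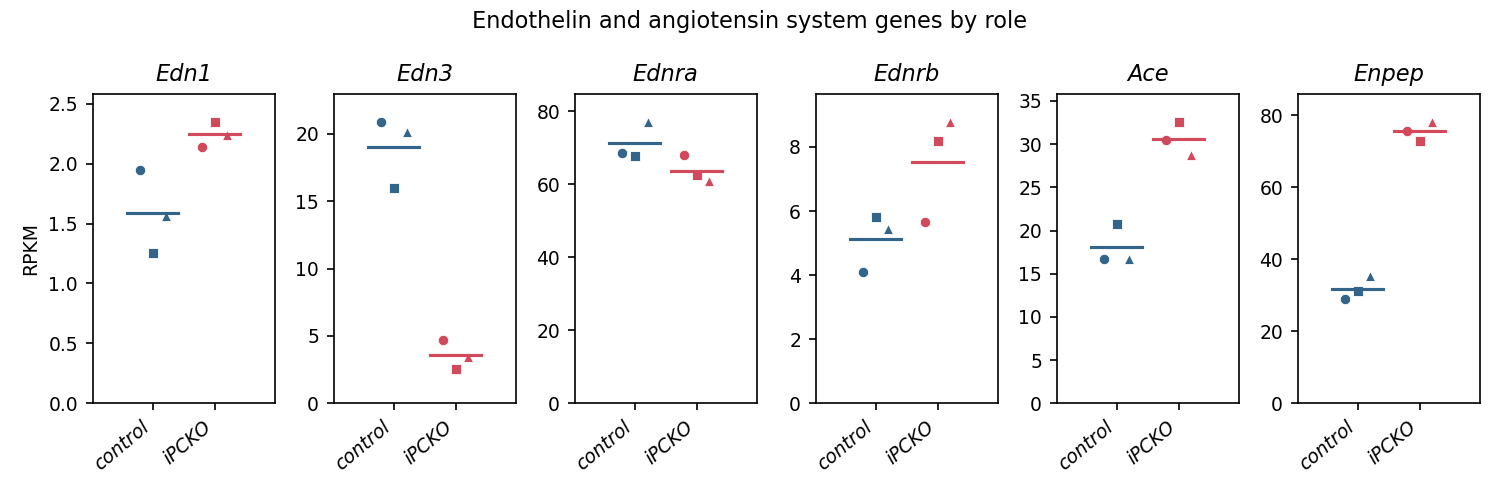
RPKM of 2 ligands, 2 receptors and 2 enzymes in the 6 lungs, each panel with its own linear axis from 0, blue for control and red for iPCKO, with a point for each lung (circle, square and triangle for replicates 1, 2 and 3) and a bar for the group mean. Edn3 is lower in all iPCKO lungs and Ace and Enpep are higher, while the groups of Ednra and Ednrb overlap.

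Ace (ENSMUSG00000020681, chr11:105967945-105989964, plus strand) was the member that passed the thresholds. It was measured at 16.7, 20.8 and 16.7 RPKM in controls and at 30.5, 32.6 and 28.7 in iPCKO lungs. The lowest iPCKO lung stood well above the highest control, which was control 2. Ace rose 1.69-fold (18.1 ± 2.33 to 30.6 ± 1.95 RPKM, log2 difference 0.76, SE 0.11, 95% interval 0.51 to 1.01, adjusted p = 0.0023). The call was lost without control 3 or without iPCKO 2 (in both cases a difference of 0.71 and an adjusted p of 0.014). It was also lost against control 2 alone (0.55, adjusted p = 0.093) and with Y-linked RNA as a covariate (0.55, adjusted p = 0.071).

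Ace is known from endothelial cells and from macrophages, and endothelial and leukocyte markers were therefore set beside it. Of 12 endothelial markers, 1 was called higher (Kdr) and 1 lower (Aplnr). Their median log2 difference was -0.04, with 5 markers above 0 and 7 below. Kdr, the main VEGF receptor of endothelium, rose with no overlap of the groups from 15.4 ± 2.06 to 26.1 ± 1.96 RPKM (log2 difference 0.77, adjusted p = 0.0031), close in size to the change of Ace, while Pecam1 had a difference of 0.03 (adjusted p = 0.9). Ace per unit of Pecam1 was 0.892 to 1.17 in controls and 1.67 to 1.9 in iPCKO lungs. Per unit of Pdgfrb it was 0.01 to 0.0152 in controls and 0.021 to 0.0241 in iPCKO lungs. Ace per unit of Kdr was 1.02 to 1.29 in controls and 1.08 to 1.27 in iPCKO lungs. Kdr was singled out because its change was like that of Ace, so a similar ratio in both groups follows from that choice. Of 9 leukocyte markers, 7 were called higher and 0 lower, with sums of 143.6, 190.4 and 248.2 RPKM in iPCKO lungs 1 to 3. The part of either kind of cell in the Ace result was not tested. The genes with the pattern most like that of Ace over the 6 lungs were Engase (Pearson's r = 0.997), Ctss (0.997) and Lap3 (0.995). Their log2 differences were 0.38, 1.67 and 0.4. They are the top of all tested genes, and with so few lungs in separate groups a high r can come from the group difference alone. An annotated antisense gene, Gm11651, overlaps Ace, as other genes on the opposite strand do Edn1, Ece1, Ednra and, among the called genes described below, Enpep, Gnai1, S1pr3, Adora1 (the coding gene Mybph) and P2ry14 (the coding gene Med12l). Whether counting used the strand is not given in the sources used here, so reads of the partners cannot be told apart.

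Enpep, glutamyl aminopeptidase, which cuts angiotensin II to angiotensin III and is a known pericyte enzyme, rose as well. It stood at 28.9, 31.1 and 35.4 RPKM in controls and at 75.5, 72.9 and 78.2 in iPCKO lungs. The gap between the groups was larger than the level of any control. The level was 2.37-fold higher in the mutants (log2 difference 1.25, SE 0.1, adjusted p = 0.00013), and against control 2 alone the difference was 1.28 with an adjusted p of 0.014. Agt, the angiotensin precursor, was the most abundant gene of the system (80.2 ± 25.2 against 97.9 ± 5.45 RPKM, adjusted p = 0.3). Ren1 was at or below 0.0914 RPKM in every lung. Of the 12 other angiotensin genes in the files, 7 were tested, 1 rose (Enpep) and 0 fell, where 6.79% of all genes tested were called.

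Agtr1a (ENSMUSG00000049115, chr13:30336441-30382867, plus strand), the type 1 receptor that mediates constriction, was the member with the next highest level after Ednra. It was measured at 44.6, 33.4 and 38.8 RPKM in controls and at 44.7, 39.0 and 41.2 in iPCKO lungs. The iPCKO values lay within the control range but for iPCKO 1, which was level with the highest control. The log2 difference was 0.1 (SE 0.12, 95% interval -0.16 to 0.37, adjusted p = 0.6), an interval that stays below the fold threshold. An annotated gene on the same strand, Gm48161, lies within Agtr1a. The near-identical copy Agtr1b was listed at 0.427 to 0.819 RPKM over all lungs, and reads that match both genes could have been lost or misplaced, so both levels are uncertain.

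Agtr2 (ENSMUSG00000068122, chrX:21484544-21489164, plus strand), the type 2 receptor, prominent in fetal tissues, was low at 1.31, 1.28 and 1.13 RPKM in controls and 1.04, 1.68 and 1.58 in iPCKO lungs. The groups overlapped, and the log2 difference was 0.17 (SE 0.2, 95% interval -0.29 to 0.63, adjusted p = 0.62). The interval reaches past the fold threshold on the side of a rise, so a rise of that size is not excluded.

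Of the adrenergic receptor genes, 1 was called by limma, the alpha-2 gene Adra2b. Adra1b (ENSMUSG00000050541, chr11:43774606-43901210, minus strand), the alpha-1B receptor, was measured at 4.77, 4.0 and 3.72 RPKM in controls and at 3.46, 2.28 and 3.01 in iPCKO lungs. All iPCKO lungs were below all controls, iPCKO 1 by little. The log2 difference was -0.51 (SE 0.17, 95% interval -0.89 to -0.13, adjusted p = 0.076), and the gene was not called. Adra1a (ENSMUSG00000045875, chr14:66635251-66771168, plus strand), the alpha-1A receptor, was listed at 0.224, 0.444 and 0.311 RPKM in controls and at 0.18, 0.164 and 0.164 in iPCKO lungs. The groups did not overlap, but these levels stand for about 20.3 to 94.2 reads a library, and the exact two-sided permutation test gave p = 0.1, the smallest it can give.

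The main alpha-1 receptor gene at the RNA level was Adra1d, with 22.0, 21.0 and 23.8 RPKM in controls and 18.0, 14.8 and 11.4 in iPCKO lungs. The groups did not overlap, and the log2 difference was -0.61 with an adjusted p of 0.029, short of the call. Summed over the 3 alpha-1 genes, the level was 27.0, 25.5 and 27.8 RPKM in controls and 21.6, 17.2 and 14.6 in iPCKO lungs, a sum that was not tested.

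Adra2a (ENSMUSG00000033717, chr19:54044151-54048982, plus strand), the alpha-2A receptor, was the lowest member in controls, at 0.12, 0.151 and 0.0986 RPKM. In iPCKO lungs it was listed at 0.522, 0.571 and 0.738 RPKM. The groups were well apart, and the mean of 0.61 ± 0.113 was 4.95 times that of 0.123 ± 0.0263. The counts behind these levels were about 11.4 to 16.5 reads a library in controls and 50.8 to 109.2 in iPCKO lungs. On the log2(RPKM + 0.1) scale the difference was 1.66, and the exact two-sided permutation test gave p = 0.1, the smallest possible with 3 against 3. With no filter limma called the gene (adjusted p = 0.0022), which makes 2 members called. It was also called with a filter of 0.3 RPKM (adjusted p = 0.0032), but passes that filter only through the iPCKO lungs, where it is high. Adra2a is also the receptor by which adrenaline primes platelets, and the summed level of 7 platelet markers was 9.41, 9.95 and 8.16 RPKM in controls and 23.4, 45.5 and 65.7 in iPCKO lungs. Of the 6 platelet markers tested, 5 were called higher, among them Pf4 and Itga2b, and their part in the Adra2a difference was not tested.

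Adra2b, the alpha-2B receptor, which constricts small vessels, showed the largest change of the adrenergic genes. It stood at 0.253, 0.171 and 0.23 RPKM in controls and at 3.47, 5.46 and 4.19 in iPCKO lungs. The gene went from near the lower end of measurement to about the control level of Adra1b. It rose 20.1-fold (log2 difference 3.8, SE 0.22, adjusted p = 2.8e-05), and the call held against control 2 alone (adjusted p = 0.0077). It passed the filter on low values through the iPCKO lungs alone and is not tested where 1 RPKM is required in all 6 lungs, and with no filter the adjusted p was 0.00011. Adra2c was listed at 0 in all controls and at no more than 0.0443 RPKM in iPCKO lungs. Summed over the 3 alpha-2 genes, the level was 0.373, 0.322 and 0.328 RPKM in controls and 4.04, 6.03 and 4.95 in iPCKO lungs, most of it Adra2b.

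Adrb1, the main cardiac beta receptor, was at 11.9 ± 0.414 RPKM in controls and 10.9 ± 0.967 in iPCKO lungs (adjusted p = 0.39). Of the 6 other adrenergic receptor genes, 4 were tested, 1 rose (Adra2b) and 0 fell, where 6.79% of all genes tested were called.

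**Figure D4:**
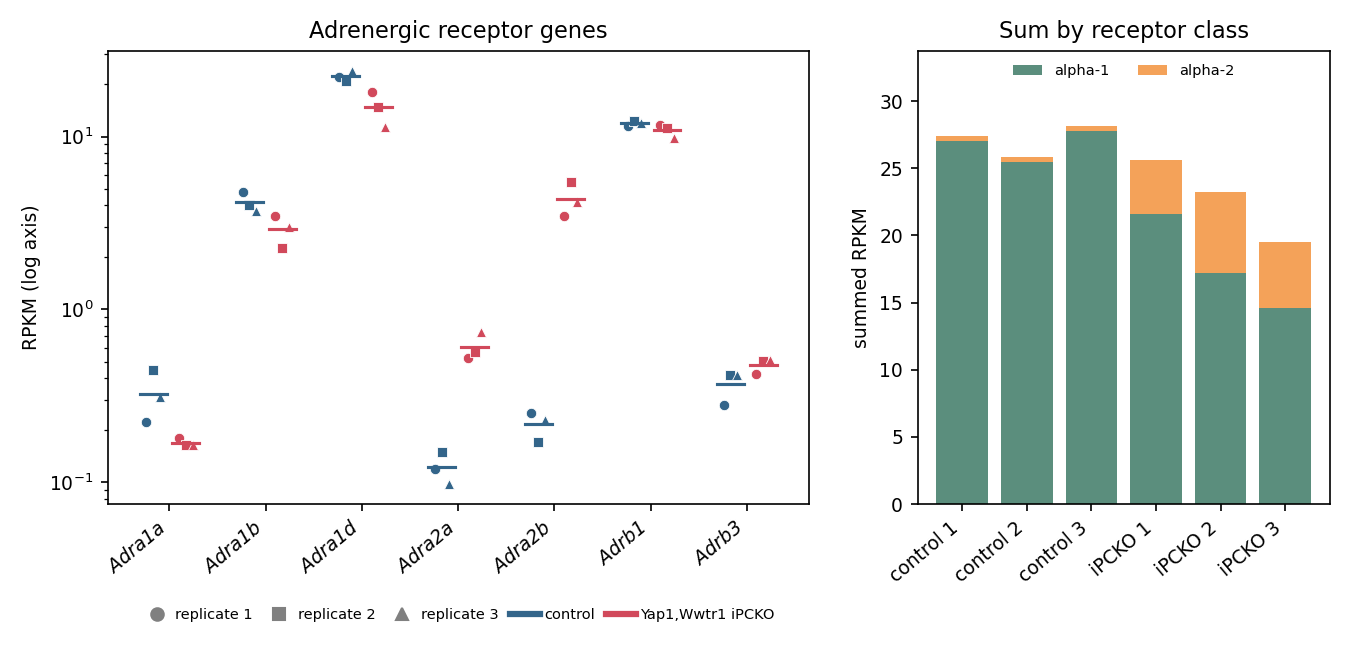
Left, RPKM of 7 adrenergic receptor genes in the 6 lungs on a log axis, with points for lungs and bars for group means. Right, RPKM summed over the alpha-1 and the alpha-2 genes in each lung as stacked bars from 0, in which the alpha-2 part is 0.322 to 0.373 RPKM in controls and 4.04 to 6.03 in iPCKO lungs, while the alpha-1 part is smaller in every iPCKO lung.

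Of the genes that make, take up and break down catecholamines, Th, the first enzyme of catecholamine synthesis, was listed at 0 in all lungs. Of these 10 genes 4 were tested and limma called 0 (against 6.79% of all genes tested). An unadjusted p below 0.05 was found for 2 of them (against 29.7% of all genes). Of the 7 receptor kinases and arrestins, which desensitise these receptors, limma called 0 (again against 6.79%) while 4 had an unadjusted p below 0.05 (again against 29.7% of all genes). Grk5 was the highest in controls and over all 6 lungs, though not in iPCKO lungs, with 33.5 ± 3.26 against 24.4 ± 1.76 RPKM (log2 difference -0.45, adjusted p = 0.018).

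Of the 22 G proteins and effectors, all were tested, 1 fell and 0 rose (6.79% of all genes tested were called). Gnai1, a Gi alpha subunit of the kind that alpha-2 receptors use, was measured at 36.5, 30.4 and 32.7 RPKM in controls and at 19.1, 14.7 and 14.2 in iPCKO lungs. All iPCKO lungs lay below all controls, and the gene fell by 1.06 on the log2 scale (SE 0.13, adjusted p = 0.0011, and 0.076 against control 2 alone). The more abundant Gnai2 stood at 185.8 ± 31.5 and 192.1 ± 10.4 RPKM (adjusted p = 0.81). The Gq subunits Gnaq and Gna11, which carry the signals of Ednra, Agtr1a and the alpha-1 receptors, had adjusted p-values of 0.18 and 0.39.

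Among 42 receptors for other vasoactive signals, 25 were tested, 3 rose and 4 fell (6.79% of all genes tested were called). Tbxa2r, the receptor for the constrictor thromboxane, stood at 12.9, 12.1 and 12.1 RPKM in controls and at 4.15, 3.33 and 2.39 in iPCKO lungs. Adora1, the Gi-coupled adenosine receptor, was at 3.96, 3.27 and 3.5 RPKM in controls and at 0.441, 0.563 and 0.679 in iPCKO lungs. Both genes fell with no overlap of the groups, Tbxa2r 3.76-fold (adjusted p = 0.00029) and Adora1 6.38-fold (adjusted p = 8.8e-05), with adjusted p-values of 0.039 and 0.026 against control 2 alone. Adora1 passed the filter through the controls alone and is not tested where 1 RPKM is required in all 6 lungs, and with no filter the adjusted p was 0.00034. P2ry14, a receptor for UDP-glucose, fell from 214.7 ± 7.47 to 110.5 ± 21.9 RPKM (adjusted p = 0.0025). Aplnr, the apelin receptor and also 1 of the 12 endothelial markers, fell from 12.1 ± 0.718 to 8.13 ± 0.326 RPKM (adjusted p = 0.0034).

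The 3 that rose were Adora2a, the Gs-coupled adenosine receptor, from 2.53 ± 0.27 to 4.54 ± 0.211 RPKM (adjusted p = 0.0021), S1pr3, a sphingosine 1-phosphate receptor, from 114.3 ± 12.8 to 201.1 ± 35.9 (adjusted p = 0.0077), and Bdkrb2, the constitutive bradykinin receptor, from 1.23 ± 0.117 to 2.37 ± 0.403 (adjusted p = 0.0083). The adenosine receptor genes Adora1 and Adora2a thus moved in opposite directions. Adora2b, also coupled to Gs, stood at 2.61 ± 0.6 and 1.94 ± 0.428 RPKM (adjusted p = 0.23). Adora3, also coupled to Gi and too low to be tested, stood at 0.0561 ± 0.0317 and 0.36 ± 0.146 RPKM. F2r, a thrombin receptor, was the most abundant of these genes and stood at 348.4 ± 46.4 and 311.3 ± 31.6 RPKM (adjusted p = 0.5). The calls of P2ry14, Aplnr, Adora2a, S1pr3 and Bdkrb2 were each lost without control 2, without control 3 or without iPCKO 2 (adjusted p from 0.01 to 0.038) and against control 2 alone (0.042 to 0.19). P2ry14, S1pr3 and Bdkrb2 also lost theirs without control 1 (0.012 to 0.025), and Aplnr, S1pr3 and Bdkrb2 without iPCKO 3 (0.012 to 0.033).

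Over all 109 other genes of these systems in the files, 74 were tested and 11 were called, 5 higher and 6 lower. Their median log2 fold change was 0.04, and of all genes tested 6.79% were called. Against control 2 alone 1 of the 11 was called, Adra2b, and with Y-linked RNA as a covariate 4 were called.

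**Figure D5:**
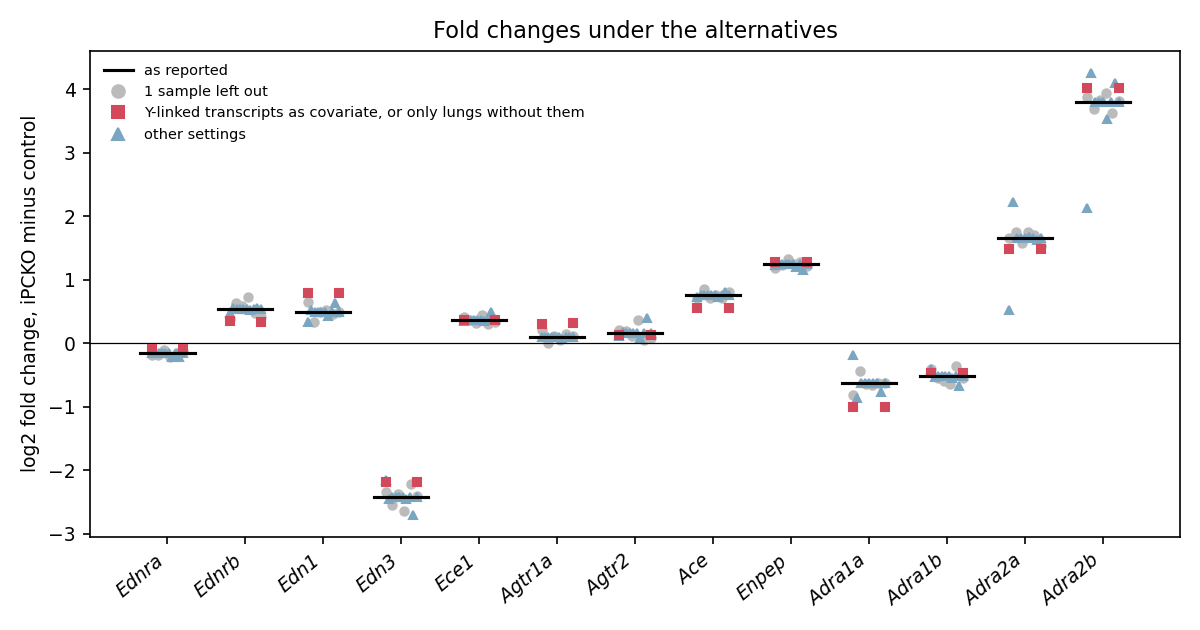
Log2 fold change, iPCKO minus control, of the 10 members and of Edn3, Enpep and Adra2b as reported (black bars) and under the alternative settings (grey circles for a lung left out, red squares for the fits that use Y-linked RNA, blue triangles for the rest). Ace stays between 0.55 and 0.86 and Ednra between -0.22 and -0.09, Agtr1a reaches -0.001, and the low Adra2a moves from 0.52 to 2.22 with the pseudocount.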

How the data were processed

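RNA on HA-tagged ribosomes was immunoprecipitated from 6 lungs and sequenced as stranded, paired-end libraries. Per the methods, the authors mapped reads to mm10 (GRCm38) with TopHat and counted them per gene with HTSeq 0.6.1, and DESeq2 served for their tests. They deposited 1 table per sample of RPKM, an already depth- and length-scaled value. The exon length they used is not given in the sources used here, and their read counts were not used here. Approximate reads and depths were read from the steps that single reads leave in low RPKM values (75.2% to 77.1% of values at 10 reads or fewer lay within 0.02 of a whole number).

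Symbols came from GENCODE M21 (21375 of 21603 genes). Where 3 or more samples reached 1 RPKM, a gene was kept, and these 12034 genes were fitted together as log2(RPKM + 0.1) with limma (lmFit, eBayes with an intensity trend) and adjusted by Benjamini-Hochberg. The thresholds were taken from the methods, an adjusted p under 0.01 and a log2 fold change past 0.5 in size. Members below the filter were compared by an exact two-sided permutation test. The script was tested on simulated data. Alternatives changed the pseudocount, filter, scaling, trend, weights and thresholds, left out each lung, blocked on replicate number or added Y-linked RNA as a covariate. The fit against control 2 alone was added after seeing the data and assumes that this lung varies like the others. Members, lists and tests were chosen with earlier results of these data known. Named are all members, the other listed genes past the thresholds, the highest gene of each list, Yap1 and Wwtr1, the 3 genes most correlated with a called member, and markers that moved with one. Other genes were chosen after their values were seen, and a few results of the lists are not reported here. Software was limma 3.58.1 in R 4.3.3, and matplotlib 3.10.9, pandas 2.3.3, numpy 2.4.6 and scipy 1.17.1 in Python 3.11.15.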

Additional observations from a re-analysis of the deposited data

How the results depend on the processing

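With 3 lungs a group and RPKM in place of counts, reads behind low genes are known only approximately, and changes in Agtr2, Adra1a and Adra2a are resolved least. The 817 calls over all genes became 1590 with sample weights, 119 with Y-linked RNA as a covariate, 31 against control 2 alone (added after seeing the data), 1313 at an adjusted p below 0.05 and 411 at an absolute log2 fold change above 1, and ranged from 382 (without control 3) to 899 with a lung left out, with 414 without iPCKO 2 and 499 without iPCKO 3. The 1 called member became 2 with no filter or a filter of 0.3 RPKM (Ace and Adra2a) and 4 with sample weights (Ace, Adra1b, Edn1 and Ednrb). It became 0 with the Y-linked covariate, against control 2 alone and above an absolute log2 fold change of 1, where limma gave 2, 3 and 5 of 8 members an unadjusted p below 0.05, and ranged from 0 to 1 with a lung left out (0 without control 3 and without iPCKO 2). The 11 other called genes became 17 with sample weights, 4 with the covariate, 1 against control 2 alone and 6 above an absolute log2 fold change of 1, and ranged from 6 (without control 2, control 3 or iPCKO 2) to 13 with a lung left out. Differences reversed for Agtr1a without control 2 (-0.001, with a highest value of 0.21 when a lung was left out) and for Wwtr1 without control 2 (-0.03, highest 0.17) and under quantile normalization (-0.00012), none of them called. Why these settings moved the counts was not tested. Of the 8 tested members, the other 7 kept their direction in all 18 settings.

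Replicate numbers are shared between the groups, but deviations of same-numbered lungs correlated at 0.238, 0.0919 and 0.0225, and control 2 correlated best with iPCKO 3 (0.273), so the numbers were not taken as pairs. With a replicate block, 922 genes, 1 member and 10 of the other listed genes were called, and Bdkrb2 lost its call (adjusted p = 0.012).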

Other observations

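Some receptors and a transporter too low to be tested had groups that did not overlap, and were picked here after their values were seen. Bdkrb1, the inducible bradykinin receptor, was listed at 0.177, 0.16 and 0.141 RPKM in controls and at 0.527, 0.738 and 0.978 in iPCKO lungs. Drd1, a dopamine receptor that couples to Gs, was listed at 0.101, 0.179 and 0.106 RPKM in controls and at 0.737, 0.458 and 0.497 in iPCKO lungs. Slc22a3, which takes up catecholamines outside neurons, was listed at 0.71, 0.639 and 0.741 RPKM in controls and at 0.121, 0.252 and 0.521 in iPCKO lungs. With no filter, or with a filter of 0.3 RPKM in 3 lungs (which Bdkrb1 and Drd1 pass only through the iPCKO lungs), limma called Bdkrb1 and Drd1 but not Slc22a3. These levels rest on few reads, and with 3 lungs a group an exact permutation test cannot go below p = 0.1.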
